A study of Mus musculus with 8 samples.

Results

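The amino acid transporter genes described here belong to the solute carrier families Slc1, Slc3, Slc6, Slc7, Slc36, Slc38 and Slc43. Probe sets were taken by name alone, but the families were chosen with earlier results of these data known. A probe set, the group of short probes that reports 1 transcript, was kept where its single annotated gene symbol fell in one of these families. This gave 118 probe sets of 58 genes, out of 45101 probe sets on the array and 18193 genes named by them. The label is broader than amino acids, because the Slc6 family also holds the monoamine carriers Slc6a2, Slc6a3 and Slc6a4, the taurine carrier Slc6a6, the creatine carrier Slc6a8 and carriers of GABA and betaine, and because Slc43a3 carries purine nucleobases. The arrays measured total RNA of LB-22 cells, a single immortalized line of mouse embryonic kidney, after siRNA against Wt1 (4 arrays) or a scrambled control siRNA (4 arrays). The Wt1 protein binds DNA through zinc fingers and is best known from kidney mesenchyme and podocytes. Cells of both groups had been expanded at 33 °C with interferon gamma, in a medium that held serum, insulin, hydrocortisone and L-glutamine. They received 25 pmol of siRNA with a lipid reagent for 6 h, were moved to 37 °C without interferon at transfection, and were grown for 48 h. Nothing in the labels says that the arrays of a group came from separate cultures, so the p-values below measure only the spread between these arrays, which may be technical.

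Amino acids cross membranes through carriers that work as exchangers, as sodium-coupled or proton-coupled symporters, or as uniporters. Several light chains of the Slc7 family reach the plasma membrane only when joined to a heavy chain, Slc3a2 or Slc3a1, and then exchange one amino acid for another. Carriers on lysosomes return amino acids to the cytosol and take part in signalling to the growth kinase mTORC1, and several plasma membrane carriers are known targets of ATF4, the transcription factor of the amino acid response.

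The signal is the MAS5 value, a linear brightness that combines the probes of a probe set, and levels of different probe sets are not compared with each other. Wt1 itself was reported by probe set 1425995_s_at, with signals of 1679.3, 1531.0, 1316.8 and 1913.9 on the Wt1 siRNA arrays, against 8396.8, 7129.4, 8197.2 and 7423.0 on the control siRNA arrays. The mean was 1610 ± 251 after Wt1 siRNA and 7787 ± 607 after control siRNA (SD, n = 4 each), so 20.5% of the control level remained (log2 difference -2.28 ± 0.11 (SE), limma adjusted p = 9.17e-07; two-sided exact permutation p = 0.0286, the smallest that 4 against 4 arrays allow). The arrays had equal trimmed means and median signals of 279.1 to 346.1, and the correlation over probe sets was 0.966 to 0.985 within a group and 0.937 to 0.967 between groups. The 3' to 5' ratio of Gapdh, a sign of RNA quality, was 0.81 to 0.89 after Wt1 siRNA and 0.79 to 0.91 after control siRNA, and that of actin was 1.11 to 1.15 after Wt1 siRNA and 1.12 to 1.21 after control siRNA, so the ranges overlapped.

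Markers were counted by their brightest probe set against a background defined below, which 58.5% of all probe sets on the array exceeded. That share is over probe sets, and the share over genes by their brightest probe set was not counted. The counts alone do not name a cell type. Markers of embryonic kidney mesenchyme were above background on all 4 control siRNA arrays for 10 of 13 genes, all but Sall1, Foxd1 and Hoxd11. The list includes Wt1, the target of the siRNA. Without Wt1 the summed signal of the other 12 genes was 10637 to 11893 after Wt1 siRNA and 10229 to 10949 after control siRNA, ranges that overlapped, and with Wt1 it was 11954 to 13572 after Wt1 siRNA and 17358 to 19346 after control siRNA. All 6 mesothelium markers were above background, and their summed signal was 50986 to 57720 after Wt1 siRNA against 79035 to 91754 after control siRNA. Podocyte markers (4 of 5 above background, Nphs1 not) summed to 1858 to 2509 after Wt1 siRNA and 3618 to 6652 after control siRNA, and collecting duct markers (6 of 7, Aqp2 not) to 12966 to 14236 after Wt1 siRNA and 15539 to 17917 after control siRNA. Endothelial markers were above background for 1 of 6 genes, with Pecam1, Cdh5, Tek, Emcn and Tie1 below it. Their summed signal was 1705 to 2058 after Wt1 siRNA and 2079 to 2913 after control siRNA, and that of leukocyte markers (3 of 5, Ptprc and Itgam not) was 3289 to 3477 after Wt1 siRNA and 2614 to 3249 after control siRNA. The ranges overlapped for proximal tubule (5 of 8 above background), neuron and glia (6 of 8) and muscle markers (3 of 6). The mesothelium, podocyte, collecting duct, endothelial and leukocyte sums did not overlap between the groups, and their part in the transporter differences was not tested. RNA of whole cultures was measured, so fewer cells of a kind and less RNA per cell cannot be told apart.

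Background was taken from 27 probe sets for Bacillus subtilis transcripts, whose 95th percentile was 109.2 to 178.8 over the arrays. Of the 118 transporter probe sets, 66 exceeded it on all 4 control siRNA arrays, while 58.5% of all probe sets on the array did so. The 66 covered 35 of the 58 genes, each counted by any of its probe sets, and the share over all genes was not counted. Carriers of the Slc36 family were all above background (4 of 4 probe sets), as were both heavy chains of the Slc3 family (2 of 2). Sodium-coupled neutral amino acid carriers of the Slc38 family followed with 20 of 27 probe sets. The Slc7 family, which holds cationic carriers and exchanger light chains, had 13 of 27, the glutamate and neutral amino acid carriers of Slc1 10 of 21, the neurotransmitter and amino acid carriers of Slc6 15 of 32, and Slc43 2 of 5. With the highest Bacillus signal of each array as the limit, 56 probe sets passed, and with at least 2 of 4 arrays above the 95th percentile, 86 did. The brighter share of 0.5 of all probe sets was tested, 22518 in all, of which 52 were transporter probe sets of 27 genes.

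**Figure D1:**
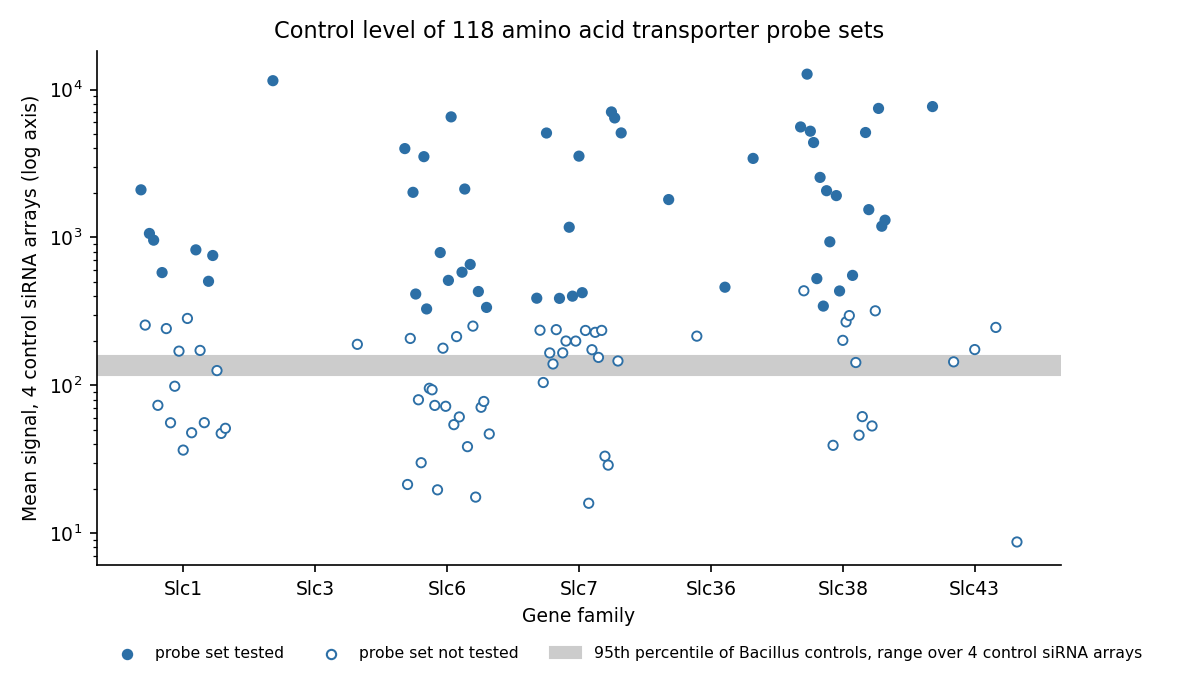
Mean MAS5 signal of each of the 118 transporter probe sets over the 4 control siRNA arrays (log axis), by gene family. Filled points are the 52 probe sets tested, open points the 66 not tested, and the grey band is the range of the 95th percentile of the Bacillus control probe sets over those arrays; all 4 Slc36 points lie above the band.

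Promoter windows, the 250 bases before a transcription start (RefSeq, GRCm38.p6), were used for 41 of the 58 genes, as 62 windows. Each was searched on both strands for TGATGNAA, the letters of a C/EBP-ATF element known from genes of the amino acid response. Each was also searched for GCGTGGG and GTGGGAG, letters of the kind bound by the zinc fingers of EGR proteins and WT1. The letters GCGTGGG and GTGGGAG can overlap at GTGGG. Genes with no window were not searched, among them Slc7a5, Slc6a8 and Slc43a3, which are described below. Transporter windows on a single chromosome were left out, while the shares over all genes include that chromosome. TGATGNAA was in windows of 3 of the 41 transporter genes (Slc7a11, Slc7a7 and Slc6a21), against 3.91% of all 27025 genes with a window (3.45% of all 32851 windows). GCGTGGG was in windows of 3 transporter genes (Slc36a4, Slc7a6 and Slc1a1), against 4.94% of all genes (4.30% of windows). GTGGGAG was in windows of 7 transporter genes (Slc1a4, Slc38a4, Slc6a4, Slc6a5, Slc6a9, Slc6a13 and Slc7a8), against 9.35% of all genes (8.25% of windows). A gene counts if any of its windows matches. The 41 transporter genes had 62 windows and all 27025 genes had 32851, so the counts by gene rest on unlike numbers of windows per gene. Windows are shown for 4 of the members whose signals are described below and that hold such letters. Slc1a1, Slc38a4, Slc6a9, Slc7a7 and Slc7a8 are also described below and hold such letters, but their windows are not shown. A window is also given for the heavy chain Slc3a2, which holds none. Capitals mark the matches, and a link between matches and calls was not tested. A match is a description of letters only. The windows are Slc1a4 at chr11:20332714-20332963 on the minus strand, with GTGGGAG starting at -160 from the start site; Slc36a4 at chr9:15709488-15709737 on the plus strand, with GCGTGGG at -57; Slc7a6 at chr8:106168671-106168920 on the plus strand, with GCGTGGG at -61; Slc7a11 at chr3:50443614-50443863 on the minus strand, with TGATGNAA at -66 and, on the other strand, at -47; and Slc3a2 at chr19:8713898-8714147 on the minus strand. A second start site of Slc7a6 has an overlapping window with GCGTGGG at -221.
Slc1a4: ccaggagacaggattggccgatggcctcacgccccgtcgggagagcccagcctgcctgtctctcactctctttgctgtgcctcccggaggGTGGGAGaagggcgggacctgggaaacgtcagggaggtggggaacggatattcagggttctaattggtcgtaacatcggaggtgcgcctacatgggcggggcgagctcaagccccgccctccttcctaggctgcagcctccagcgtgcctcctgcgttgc
Slc36a4: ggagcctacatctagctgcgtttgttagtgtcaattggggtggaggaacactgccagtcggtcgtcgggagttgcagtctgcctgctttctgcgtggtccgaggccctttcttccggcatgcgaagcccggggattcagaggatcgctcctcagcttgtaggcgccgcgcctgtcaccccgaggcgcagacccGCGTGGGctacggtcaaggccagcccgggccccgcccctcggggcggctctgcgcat
Slc7a6: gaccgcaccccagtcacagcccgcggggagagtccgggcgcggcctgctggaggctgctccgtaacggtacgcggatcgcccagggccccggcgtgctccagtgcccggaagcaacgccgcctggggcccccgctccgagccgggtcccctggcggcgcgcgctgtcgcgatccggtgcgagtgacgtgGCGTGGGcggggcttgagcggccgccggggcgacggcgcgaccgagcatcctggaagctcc
Slc7a11: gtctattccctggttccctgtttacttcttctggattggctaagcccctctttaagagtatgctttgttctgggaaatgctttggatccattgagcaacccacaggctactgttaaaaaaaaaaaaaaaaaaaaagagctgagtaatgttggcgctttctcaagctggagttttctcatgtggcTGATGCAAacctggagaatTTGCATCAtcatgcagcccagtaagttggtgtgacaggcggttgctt
Slc3a2: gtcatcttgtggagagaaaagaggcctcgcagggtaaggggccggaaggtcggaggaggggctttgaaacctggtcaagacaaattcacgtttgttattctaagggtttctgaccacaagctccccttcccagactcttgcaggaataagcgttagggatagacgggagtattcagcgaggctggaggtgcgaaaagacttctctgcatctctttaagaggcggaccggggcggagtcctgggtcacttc

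After Wt1 siRNA, 5 of the 27 transporter genes rose and 5 fell by their brightest probe set, and 17 were not called. Slc7a5, Slc1a4, Slc38a2, Slc3a2 and Slc43a3 rose by 1.18-fold to 1.62-fold, and Slc6a8, Slc36a1, Slc7a1, Slc1a3 and Slc36a4 fell to between 48.3% and 68.9% of the control level. A call is an adjusted p under 0.05 (limma, Benjamini-Hochberg over the 22518 probe sets). The called share of the genes was 37.0%, beside 27.8% of all 11263 genes tested by their brightest probe set, of which 13.2% rose and 14.6% fell. By probe set, 6 rose, 10 fell and 36 were not called, so 30.8% of the 52 were called, beside 23.1% of all tested probe sets (10.8% higher and 12.3% lower). The signals of the groups did not overlap for 16 of the 52 transporter probe sets, beside 27.0% of all, and for 11 of the 27 genes, beside 32.4% of all. The median log2 difference was -0.05 over the transporter genes and -0.004 over all genes. With each array centred on its median, which shifts all differences by 0.11, the split was 7 higher and 5 lower, and the median over the transporter probe sets turned to 0.06, against -0.045 as deposited. It was 0.04 after quantile normalization and 0.03 after cyclic loess. The family medians of Slc1 (-0.09) and Slc6 (-0.07) also turned under scaling, to 0.02 and 0.04 with median centring, and Slc6 to 0.04 with quantile normalization and 0.05 with cyclic loess.

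**Figure D2:**
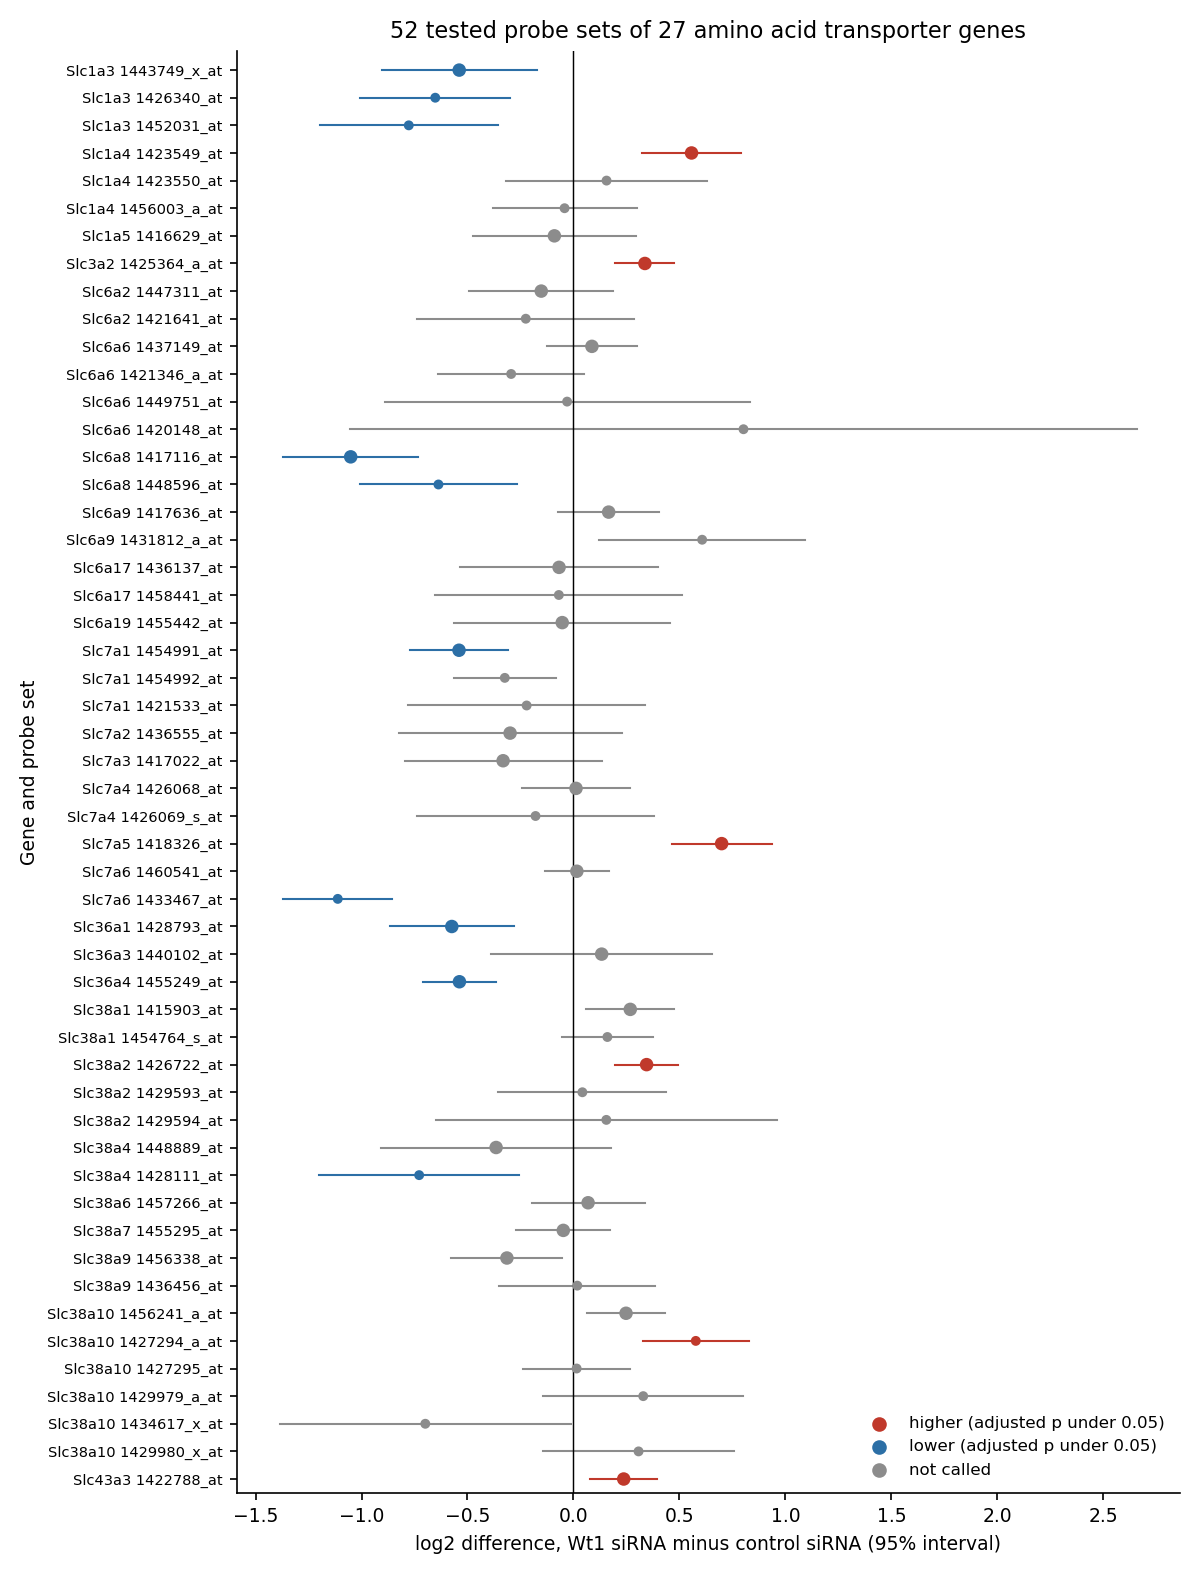
Log2 difference, Wt1 siRNA minus control siRNA, with its 95% interval for each of the 52 tested probe sets (4 arrays per group); large points are the brightest probe set of a gene. Red points (6) rose, blue points (10) fell and grey points (36) were not called.

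Of the heterodimeric exchangers, the heavy chain Slc3a2 and the light chain Slc7a5 rose, and the light chain Slc7a6 fell by 1 of its 2 probe sets. Slc7a5 brings large neutral amino acids such as leucine into cells. Its signals (1418326_at) were 8413.7, 7719.3, 7422.4 and 9334.8 after Wt1 siRNA, against 5644.4, 4132.6, 5392.4 and 5151.3 after control siRNA, so every Wt1 siRNA array was above every control array. The mean was 8223 ± 850 after Wt1 siRNA and 5080 ± 663 after control siRNA (SD, n = 4 each), a 1.62-fold increase (95% interval 1.38 to 1.91; log2 difference 0.70 ± 0.11 (SE), adjusted p = 0.000822). Slc3a2, the heavy chain that escorts Slc7a5 and other light chains to the cell surface, gave signals (1425364_a_at) of 14176.0, 14741.6, 14951.4 and 14112.2 after Wt1 siRNA, against 10929.7, 11846.4, 11264.5 and 11871.4 after control siRNA. These groups were also separate, and the increase was 1.26-fold (log2 difference 0.34 ± 0.06, adjusted p = 0.00287).

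Slc7a6 joins Slc3a2 and exchanges cationic for neutral amino acids. Its probe set 1433467_at read 1791.1, 1747.3, 1784.2 and 1286.8 after Wt1 siRNA, against 3282.1, 3595.2, 3796.0 and 3502.0 after control siRNA, and thus fell to 46.3% of the control level (log2 difference -1.11 ± 0.12, adjusted p = 6.14e-05), with the groups far apart. The brighter probe set 1460541_at read 5275.2, 5022.7, 5155.1 and 5112.0 after Wt1 siRNA, against 5459.9, 4965.8, 4856.8 and 5070.9 after control siRNA. Those groups overlapped, and the log2 difference was 0.02 ± 0.07 (95% interval -0.13 to 0.17, adjusted p = 0.896). The ratio of both probe sets on the same array, a measure chosen after the values were seen, had a log2 of -1.56, -1.52, -1.53 and -1.99 after Wt1 siRNA, against -0.73, -0.47, -0.36 and -0.53 after control siRNA. The means were -1.65 ± 0.23 after Wt1 siRNA and -0.52 ± 0.16 after control siRNA (SD, n = 4 each). No test of the ratio is given, because the measure was chosen from these same values. With the probe sets averaged, the gene fell by 0.55 on the log2 scale (adjusted p = 0.000318).

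The other light chains were too dim for the test. Slc7a11, the cystine and glutamate exchanger that supplies cysteine for glutathione, read 206.6, 416.7, 452.6 and 478.4 (1443536_at) after Wt1 siRNA, against 136.1, 163.5, 153.2 and 242.2 after control siRNA. Wt1 siRNA array 1 lay below control array 4, so the groups overlapped, and without the filter on brightness the log2 difference of 1.12 had an adjusted p of 0.0619. Its second probe set 1420413_at had a log2 difference of 0.23 (adjusted p = 0.846 without the filter). Slc7a7, the partner of Slc3a2 in export of cationic amino acids, read 306.8, 157.4, 262.5 and 306.9 after Wt1 siRNA, against 268.1, 270.9, 146.2 and 225.9 after control siRNA. Slc7a8, a further exchanger of neutral amino acids, read 104.2, 10.7, 83.1 and 12.5 after Wt1 siRNA, against 120.5, 116.5, 153.1 and 27.0 after control siRNA. No Wt1 siRNA array of Slc7a8 was above background. Slc7a10, an exchanger of small neutral amino acids, read 153.2, 49.1, 217.1 and 428.3 after Wt1 siRNA, against 157.9, 295.6, 182.4 and 314.4 after control siRNA. The pair that reabsorbs cystine and cationic amino acids in the proximal tubule was near background: the heavy chain Slc3a1 read 199.9, 111.1, 172.3 and 238.0 after Wt1 siRNA, against 240.4, 163.7, 120.9 and 230.8 after control siRNA. Its light chain Slc7a9 read 203.7, 202.0, 56.2 and 198.1 after Wt1 siRNA, against 240.9, 164.5, 132.6 and 78.8 after control siRNA. Groups overlapped for Slc7a7, Slc7a8, Slc7a10, Slc3a1 and Slc7a9.

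**Figure D3:**
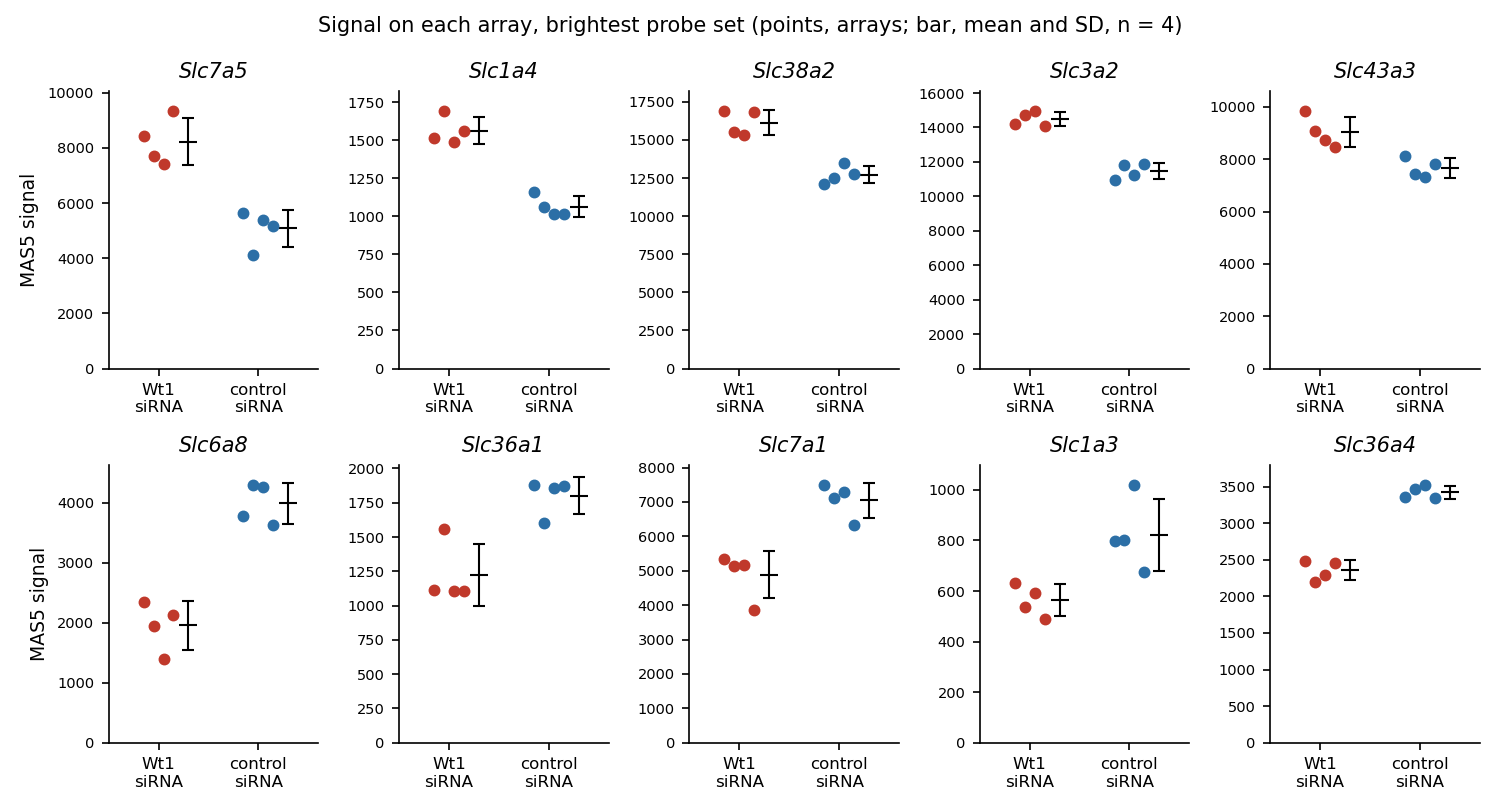
MAS5 signal on each array for the brightest probe set of the 10 called transporter genes (points, arrays; bars, mean and SD, n = 4), with Wt1 siRNA in red and control siRNA in blue and every axis starting at 0. The upper row holds the 5 genes that rose and the lower row the 5 that fell, and in none of the panels do the groups overlap.

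Of the sodium-coupled carriers of small neutral amino acids, Slc38a2 and Slc1a4 rose, by 1 of 3 tested probe sets each. Slc38a2 takes up alanine, serine and glutamine, and its brightest probe set 1426722_at read 16895.8, 15510.8, 15315.5 and 16851.5 after Wt1 siRNA, against 12122.7, 12503.6, 13458.4 and 12755.6 after control siRNA. The groups were separate and the increase was 1.27-fold (log2 difference 0.34 ± 0.07, adjusted p = 0.00377). Its dimmer probe sets had log2 differences of 0.04 (1429593_at, adjusted p = 0.898) and 0.155 (1429594_at, adjusted p = 0.803), and the mean over the 3 probe sets was 0.18 (adjusted p = 0.469), which does not keep the call. Slc1a4 exchanges alanine, serine and cysteine, and its brightest probe set 1423549_at read 1514.1, 1692.4, 1488.6 and 1559.0 after Wt1 siRNA, against 1161.5, 1058.7, 1014.9 and 1016.2 after control siRNA. All Wt1 siRNA arrays were higher, by 1.47-fold (log2 difference 0.56 ± 0.11, adjusted p = 0.00307). Its other probe sets had log2 differences of 0.16 (1423550_at, adjusted p = 0.651) and -0.04 (1456003_a_at, adjusted p = 0.878), and the mean over the probe sets was 0.22 (adjusted p = 0.238), which again does not keep the call.

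Slc1a5, the exchanger best known for glutamine uptake, was not called. It read 1881.1, 1616.7, 2381.8 and 1901.0 (1416629_at) after Wt1 siRNA, against 1418.1, 2162.5, 2317.1 and 2490.1 after control siRNA, with a log2 difference of -0.09 ± 0.175 (95% interval -0.47 to 0.29, adjusted p = 0.754). The groups overlapped, and the second probe set of Slc1a5, 1440379_at, was too dim for the test. Slc38a1, a glutamine carrier of the same kind as Slc38a2, read 6742.1, 6175.3, 6878.4 and 6951.6 (1415903_at) after Wt1 siRNA, against 5315.8, 5805.1, 4752.9 and 6461.9 after control siRNA. Control array 4 lay above Wt1 siRNA array 2, and the log2 difference of 0.27 ± 0.095 missed the threshold (adjusted p = 0.0642). It passed without control array 4 (0.34, adjusted p = 0.0299), with median centring (adjusted p = 0.049), in the brightest share of 0.25 (adjusted p = 0.0461) and with 1 probe set per gene (adjusted p = 0.0351). The other probe set of Slc38a1, 1454764_s_at, had a log2 difference of 0.16 (adjusted p = 0.265).

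Slc38a4, a carrier of neutral and cationic amino acids, fell by its dimmer probe set only. This probe set, 1428111_at, read 370.9, 276.9, 410.9 and 238.0 after Wt1 siRNA, against 473.2, 523.5, 587.9 and 519.6 after control siRNA, and had 60.4% of the control level (log2 difference -0.73 ± 0.22, adjusted p = 0.0304). The groups did not overlap, yet the call was lost with median centring (adjusted p = 0.0993), quantile normalization (0.0875), cyclic loess (0.0867) and no filter (0.0665). It was also lost without Wt1 siRNA array 2 (adjusted p = 0.0809) or 4 (0.06), or without control array 2 (0.067), 3 (0.0572) or 4 (0.0686). The brightest probe set of the gene, 1448889_at, read 584.2, 337.0, 435.2 and 356.1 after Wt1 siRNA, against 661.9, 528.9, 365.7 and 656.2 after control siRNA. Those groups overlapped (log2 difference -0.365 ± 0.25, adjusted p = 0.318). The remaining tested members of the family with a single tested probe set had differences close to 0, with 0.07 for Slc38a6 and -0.05 for Slc38a7, a lysosomal glutamine carrier.

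Slc38a10 had 6 tested probe sets, of which 1 was called. Its probe set 1427294_a_at read 8272.2, 7860.1, 6541.4 and 8409.9 after Wt1 siRNA, against 5707.5, 4383.4, 6021.9 and 4789.2 after control siRNA, and rose by 1.49-fold (log2 difference 0.58 ± 0.115, adjusted p = 0.00395) without overlap. The brightest, 1456241_a_at, read 9136.9, 9234.9, 8736.5 and 8190.8 after Wt1 siRNA, against 6881.1, 6861.0, 8560.1 and 7507.8 after control siRNA, with a log2 difference of 0.25 ± 0.085 (adjusted p = 0.0553). It passed the threshold without control array 3 (0.32, adjusted p = 0.00921), the highest control array, or without Wt1 siRNA array 4 (0.28, adjusted p = 0.0381). It passed too with array weights (adjusted p = 0.00382), quantile normalization (0.0386), the brightest share of 0.25 (0.0373) and 1 probe set per gene (0.0301). The other 4 probe sets were not called, with log2 differences of 0.02 (1427295_at), 0.33 (1429979_a_at), 0.31 (1429980_x_at) and -0.70 (1434617_x_at). The log2 ratio of 1427294_a_at to 1427295_at on the same array, a pair picked from the 6 because it had the smallest and the largest adjusted p and therefore given with no test, was 0.90, 0.84, 0.61 and 0.95 after Wt1 siRNA, against 0.08, 0.27, 0.37 and 0.32 after control siRNA (difference 0.56). Over all transporters, 15 genes had at least 2 tested probe sets, and their probe sets differed in call for 6 of these genes. The same count over all genes of the array was not made.

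**Figure D4:**
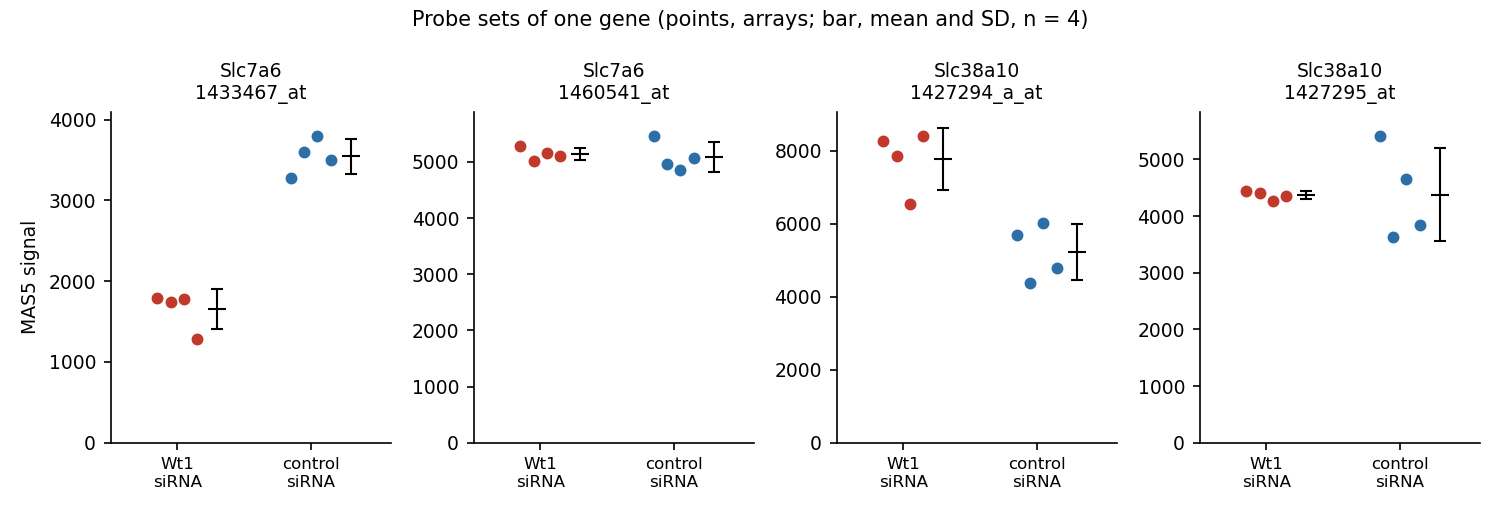
MAS5 signal on each array for pairs of probe sets of Slc7a6 and Slc38a10 (points, arrays; bars, mean and SD, n = 4), with Wt1 siRNA in red and control siRNA in blue and every axis starting at 0. The groups are apart for 1433467_at of Slc7a6 and 1427294_a_at of Slc38a10 and overlap for the other probe set of each gene.

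Slc7a1, the carrier of arginine, lysine and ornithine in most cells, fell. Its probe set 1454991_at read 5341.0, 5138.8, 5175.8 and 3872.2 after Wt1 siRNA, against 7482.9, 7126.6, 7289.1 and 6320.3 after control siRNA. The groups were separate, and 68.8% of the control level was measured (log2 difference -0.54 ± 0.11, adjusted p = 0.00377), although with median centring the difference of -0.43 had an adjusted p of 0.0801. A second probe set, 1454992_at, read 4755.6, 5167.4, 4523.4 and 6136.9 after Wt1 siRNA, against 6917.4, 6176.9, 7072.3 and 5535.7 after control siRNA, and was not called (-0.32 ± 0.11, adjusted p = 0.0535). Here Wt1 siRNA array 4 was above control array 4, and the probe set passed without Wt1 siRNA array 4 (adjusted p = 0.0119) or without control array 4 (0.0378). It passed too with array weights (0.0219), quantile normalization (0.043) and the brightest share of 0.25 (0.0391). The third, 1421533_at, had a log2 difference of -0.22 (adjusted p = 0.577). Slc7a2, the inducible carrier of cationic amino acids, read 384.9, 317.7, 275.4 and 361.9 (1436555_at) after Wt1 siRNA, against 370.2, 363.6, 624.5 and 332.2 after control siRNA. Its log2 difference was -0.30 ± 0.24 (adjusted p = 0.407) and the groups overlapped, and that of Slc7a3, a further cationic carrier, was -0.33 (adjusted p = 0.29).

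Both called carriers of the Slc36 family fell. Slc36a4, which carries proline and tryptophan, read 2482.3, 2202.5, 2296.1 and 2454.0 (1455249_at) after Wt1 siRNA, against 3355.1, 3469.4, 3515.9 and 3342.3 after control siRNA. The groups were far apart with little spread within either, and 68.9% of the control level remained (log2 difference -0.54 ± 0.08, adjusted p = 0.000586). Slc36a1, which exports small amino acids from lysosomes, read 1114.3, 1559.7, 1109.1 and 1103.6 (1428793_at) after Wt1 siRNA, against 1877.0, 1599.7, 1861.1 and 1869.7 after control siRNA. Array 2 stood apart in both groups, high after Wt1 siRNA and low after control siRNA, and the groups still did not overlap (67.2% of control, log2 difference -0.57 ± 0.13, adjusted p = 0.00944). With median centring the adjusted p was 0.0638. Slc36a3 had a log2 difference of 0.13 (adjusted p = 0.732), and Slc36a2, a proline and glycine carrier of the kidney, was too dim for the test.

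The lysosomal arginine sensor Slc38a9 was not called. Its brightest probe set 1456338_at read 1009.3, 954.9, 970.1 and 882.8 after Wt1 siRNA, against 1068.0, 1191.6, 1152.0 and 1345.8 after control siRNA. Every Wt1 siRNA array was below every control array, with a log2 difference of -0.31 ± 0.12 (adjusted p = 0.0817). The difference passed the threshold with array weights (adjusted p = 0.0338) and without an intensity trend in the variance (0.0499). A second probe set, 1436456_at, had a log2 difference of 0.02.

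Slc1a3, a high-affinity glutamate carrier known from glia, fell by all 3 of its tested probe sets. The brightest, 1443749_x_at, whose suffix marks probes that can match other transcripts, read 632.3, 538.7, 593.0 and 488.9 after Wt1 siRNA, against 796.7, 803.1, 1018.0 and 675.5 after control siRNA (68.8% of control, log2 difference -0.54 ± 0.17, adjusted p = 0.037). This call was lost without Wt1 siRNA array 2 (adjusted p = 0.0849), 3 (0.0607) or 4 (0.0725) and without control array 1 (0.0668), 2 (0.074) or 3 (0.0755). It was also lost with array weights (0.057), no filter (0.0661), cyclic loess (0.101), quantile normalization (0.117) and median centring (0.17). The second probe set, 1426340_at, read 354.6, 395.8, 383.1 and 338.8 after Wt1 siRNA, against 623.6, 558.9, 553.0 and 576.0 after control siRNA (63.6%, log2 difference -0.65 ± 0.16, adjusted p = 0.0134), and lost the call with median centring (adjusted p = 0.0677). The third, 1452031_at, read 313.5, 320.6, 285.1 and 255.2 after Wt1 siRNA, against 430.6, 580.1, 463.9 and 543.4 after control siRNA (58.4%, log2 difference -0.78 ± 0.19, adjusted p = 0.013). Groups did not overlap for any of the 3. The 4 tested markers of neurons and glia had a median log2 difference of -0.06, and the summed signal of that list was 3644 to 4022 after Wt1 siRNA and 3478 to 4504 after control siRNA.

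The other glutamate carriers were near or below background. Slc1a1, the glutamate and cysteine carrier of kidney epithelium, read 48.1, 55.1, 167.0 and 94.2 (1448299_at) after Wt1 siRNA, against 69.8, 153.6, 173.2 and 290.9 after control siRNA. Slc1a2, the main glutamate carrier of astrocytes, read 213.5, 25.8, 37.2 and 150.5 (1438194_at) after Wt1 siRNA, against 158.8, 158.5, 21.0 and 55.3 after control siRNA. Groups overlapped for both. Slc1a6 read 46.8, 51.8, 58.6 and 141.1 (1418933_at) after Wt1 siRNA, none above background, against 158.9, 310.4, 316.4 and 234.6 after control siRNA, all above it. This glutamate carrier, known from Purkinje cells, was too dim for the test, and had an adjusted p of 0.0259 when no filter was set.

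In the Slc6 family, 2 of 13 tested probe sets were called, and both belong to the creatine carrier Slc6a8. Its brightest probe set 1417116_at read 2343.1, 1948.0, 1393.0 and 2133.8 after Wt1 siRNA, against 3768.8, 4286.2, 4262.3 and 3626.9 after control siRNA. The groups were far apart, and Slc6a8 fell to 48.3% of the control level (mean 1955 ± 408 after Wt1 siRNA and 3986 ± 338 after control siRNA, SD, n = 4 each; log2 difference -1.05 ± 0.145, adjusted p = 0.000404). The second probe set, 1448596_at, read 1182.4, 1092.1, 1384.6 and 1881.1 after Wt1 siRNA, against 2567.2, 1983.0, 1820.5 and 2122.9 after control siRNA. Wt1 siRNA array 4 lay above control array 3, so these groups overlapped, with 64.3% of the control level (log2 difference -0.64 ± 0.17, adjusted p = 0.0187). That call was lost without Wt1 siRNA array 1 (adjusted p = 0.0567) or 2 (0.058) or without control array 1 (0.0547).

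Slc6a9, the glycine carrier of many non-neuronal cells, was not called. It read 2251.9, 2218.8, 2295.0 and 2214.4 (1417636_at) after Wt1 siRNA, against 2418.6, 1707.5, 1956.7 and 1984.6 after control siRNA (log2 difference 0.17 ± 0.11, adjusted p = 0.304). Its second probe set 1431812_a_at read 1348.6, 1211.9, 861.8 and 1291.2 after Wt1 siRNA, against 1050.1, 744.7, 503.7 and 858.4 after control siRNA (0.61 ± 0.22, adjusted p = 0.0711). This one passed with median centring (adjusted p = 0.0149), quantile normalization (0.0263) and cyclic loess (0.0338), and without Wt1 siRNA array 3 (0.0414) or control array 1 (0.0335). The taurine carrier Slc6a6 had a log2 difference of 0.09 at its brightest probe set (adjusted p = 0.566). The remaining tested genes of the family had differences of -0.15 (Slc6a2, noradrenaline), -0.07 (Slc6a17, neutral amino acids) and -0.05 (Slc6a19, neutral amino acids in kidney and gut).

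Slc43a3, the nucleobase carrier, read 9842.6, 9097.3, 8751.3 and 8481.3 (1422788_at) after Wt1 siRNA, against 8121.6, 7424.2, 7321.1 and 7808.7 after control siRNA. The groups did not overlap, and the increase was 1.18-fold (log2 difference 0.24 ± 0.07, adjusted p = 0.0346). This call was lost without Wt1 siRNA array 1 (adjusted p = 0.111), 2 (0.0844) or 3 (0.0557) and without control array 2 (0.0902), 3 (0.0559) or 4 (0.0721). It was also lost with cyclic loess (0.0619), no filter (0.0678), no trend (0.0814) and median centring (0.0827). The amino acid carriers of the family, Slc43a1 and Slc43a2, were too dim for the test.

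The 66 transporter probe sets that were not tested had control means of 8.7 to 435, and 31 genes had no tested probe set. Of these genes, 8 had a probe set above background on all control siRNA arrays (Slc1a6, Slc3a1, Slc6a3, Slc6a18, Slc7a7, Slc7a10, Slc36a2 and Slc43a1), and 3 had one above it on all Wt1 siRNA arrays (Slc7a11, Slc36a2 and Slc43a1). The groups did not overlap for 3 of the 66 probe sets, which report Slc1a6, Slc38a6 (1440099_at, adjusted p = 0.144 without the filter) and Slc6a4, the last with no array above background. The share among all untested probe sets of the array was not counted, so no result is drawn from this count. The median SD within a group was 0.80 on the log2 scale for untested transporter probe sets and 0.19 for tested ones, so differences of the size seen above were not detectable for most dim members.

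Genes around the carriers were counted through their brightest probe set, in lists chosen with earlier results of these data known. The counts below stand beside 13.2% higher and 14.6% lower, 27.8% in all, among all genes tested, and no list was tested against that share. The called share was 22.2% for other carriers, 40.0% for partners and regulators, 42.1% for ATF4 and the amino acid response, 31.6% for the tRNA synthetases and 44.8% for mTORC1 sensing. It was 56.2% for cysteine and glutathione, 31.2% for glutamine and related amino acids, 38.5% for serine and one-carbon genes, 12.5% for branched-chain catabolism and 22.2% for arginine, creatine and polyamines, each over 9 to 29 genes. Among other carriers of amino acids, 2 of 18 rose, 2 fell and 14 were not called (median log2 difference 0.08, beside -0.004 for all genes). Slc25a13, the mitochondrial aspartate and glutamate carrier, read 1516.9, 1549.6, 1633.0 and 1689.5 after Wt1 siRNA, against 2880.7, 2978.6, 2321.0 and 3263.1 after control siRNA (56.2% of control, adjusted p = 0.000338), and Slc25a39, which brings glutathione into mitochondria, had 70.1% (adjusted p = 0.000796). The lysosomal peptide and histidine carrier Slc15a4 rose by 1.44-fold (adjusted p = 0.0109) and the cysteine carrier of lysosomes Mfsd12 by 1.31-fold (adjusted p = 0.0298). The count of 2 higher became 1 without Wt1 siRNA array 1, 2 or 3 or control array 1 or 2.

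Of 10 tested partners and regulators of carrier proteins, 2 rose, 2 fell and 6 were not called (median -0.025). Sgk1, a kinase that raises the surface level of several carriers, read 6413.1, 6540.7, 6573.8 and 5385.1 after Wt1 siRNA, against 12821.7, 13596.6, 13539.8 and 11699.6 after control siRNA. It fell to 48.2% of the control level (log2 difference -1.05 ± 0.085, adjusted p = 1.09e-05), with the groups far apart. Nedd4l, the ubiquitin ligase that Sgk1 phosphorylates, read 4607.5, 4693.3, 4445.4 and 3672.5 after Wt1 siRNA, against 3125.2, 2755.5, 3249.6 and 2488.1 after control siRNA, and rose by 1.5-fold (adjusted p = 0.00278). Cd44, a partner of the cystine exchanger, rose by 1.39-fold, and the arrestin Arrdc1 had 75.3% of the control level. The count of 2 lower became 1 without Wt1 siRNA array 1 or 2 or control array 1, 3 or 4.

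In the list of ATF4 and the amino acid response, 5 of 19 tested genes rose, 3 fell and 11 were not called (median -0.07). Ddit3, a stress transcription factor, read 4286.8, 4489.5, 4747.7 and 3937.8 after Wt1 siRNA, against 2274.9, 2455.0, 2844.0 and 2617.3 after control siRNA, a 1.72-fold increase (adjusted p = 0.000162). Vldlr, a lipoprotein receptor, rose by 1.49-fold and Ppp1r15a, a phosphatase subunit that restores translation, by 1.43-fold. Trib3 rose by 1.43-fold and Eif4ebp1 by 1.325-fold. Cebpg, a partner of ATF4, had 61.8% of the control level, and Chac1 had 70.1%. Atf4 itself had a log2 difference of -0.04 (adjusted p = 0.768). Members known as ATF4 targets lay on both sides, and asparagine synthetase (Asns) read 9985.6, 9609.8, 9884.4 and 9069.6 after Wt1 siRNA, against 11249.4, 12263.5, 12212.9 and 11614.3 after control siRNA (81.4%, adjusted p = 0.00744). The count of 5 higher became 3 without Wt1 siRNA array 2 or control array 4.

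The cytosolic aminoacyl-tRNA synthetases, which load tRNAs with amino acids, had 1 of 19 genes higher, 5 lower and 13 not called (median -0.06). Tars, for threonine, read 4088.2, 4157.0, 4246.7 and 3559.9 after Wt1 siRNA, against 6610.2, 5954.6, 6797.7 and 5046.4 after control siRNA (66.0% of control, adjusted p = 0.00166), and Wars, for tryptophan, had 66.7% (adjusted p = 0.000237). Mars1, Sars and Gars had 71.9%, 73.4% and 79.1%, and Vars rose by 1.33-fold. With median centring 2 genes were lower, and Vars lost its call without Wt1 siRNA array 1, while 2 genes were higher without control array 3. Of the genes of amino acid sensing by mTORC1, 8 of 29 rose, 5 fell and 16 were not called (median 0.05). Sesn1, a member of the sestrin family of leucine sensors, fell to 51.3% of the control level (adjusted p = 0.000245), and Lamtor2 and Lamtor3, subunits of the lysosomal Ragulator complex, had 67.4% each, beside 71.6% for Tsc1, which restrains mTORC1. Another Ragulator subunit, Lamtor1, read 20027.5, 16096.5, 19433.6 and 14908.1 after Wt1 siRNA, against 12180.1, 12480.4, 13955.4 and 12139.3 after control siRNA (1.38-fold, adjusted p = 0.00629). Ragulator subunits thus lay on both sides. The count of 8 higher was 5, 4 and 3 without Wt1 siRNA array 1, 2 or 3, and 4 and 3 without control array 2 or 4.

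Among genes of cysteine and glutathione metabolism, 5 of 16 rose, 4 fell and 7 were not called (median 0.04). Gclc, the catalytic subunit of the enzyme that limits glutathione synthesis, read 16715.1, 17226.5, 16301.1 and 17016.2 after Wt1 siRNA, against 9631.5, 9443.5, 7076.3 and 7351.4 after control siRNA, a 2.03-fold increase (adjusted p = 4.69e-05). Its partner Gclm rose by 1.92-fold (adjusted p = 0.00108). Cdo1, which oxidizes cysteine, had 36.0% of the control level (adjusted p = 0.00304) and Csad, which acts next on the way to taurine, 59.0%. The 5 higher became 3 without Wt1 siRNA array 1 or 3 or control array 1 or 4, and the 4 lower became 2 without Wt1 siRNA array 1 or control array 4.

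The remaining lists hold enzymes of amino acid metabolism. Of 16 genes of glutamine, glutamate, aspartate and proline metabolism, 3 rose, which are the pyrimidine enzyme Cad (1.6-fold, adjusted p = 0.000274), the purine enzyme Ppat (1.46-fold) and the aminotransferase Got2 (1.28-fold), 2 fell (Asns and Got1, 83.9%) and 11 were not called (median 0.07). Those 2 became 1 without Wt1 siRNA array 1, 2 or 4 or control array 2 or 4. Serine, glycine and one-carbon genes had 2 of 13 higher (Mthfd1l, 1.39-fold, and Shmt1, 1.36-fold), 3 lower (Aldh1l2, 74.4%, Psat1, 76.5%, and Shmt2, 83.5%) and 8 not called, with 1 lower without Wt1 siRNA array 2 or 3 or control array 1 or 4. Of 16 genes of branched-chain amino acid catabolism, 2 fell, Bcat1 (58.6%, adjusted p = 0.000311) and Dld (64.4%), and 14 were not called, with 1 gene higher without Wt1 siRNA array 4 or control array 3. In the list of arginine, creatine and polyamine metabolism, 1 of 9 rose (the spermidine synthase Srm, 1.16-fold), 1 fell (the antizyme inhibitor Azin1, 84.6%) and 7 were not called. The median log2 difference was 0.147 for this list, -0.003 for serine and one-carbon genes and -0.012 for branched-chain catabolism. Srm lost its call without Wt1 siRNA array 1, 2 or 3 or control array 2 or 4, and Azin1 without Wt1 siRNA array 1 or 2 or control array 1, 2 or 4.

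**Figure D5:**
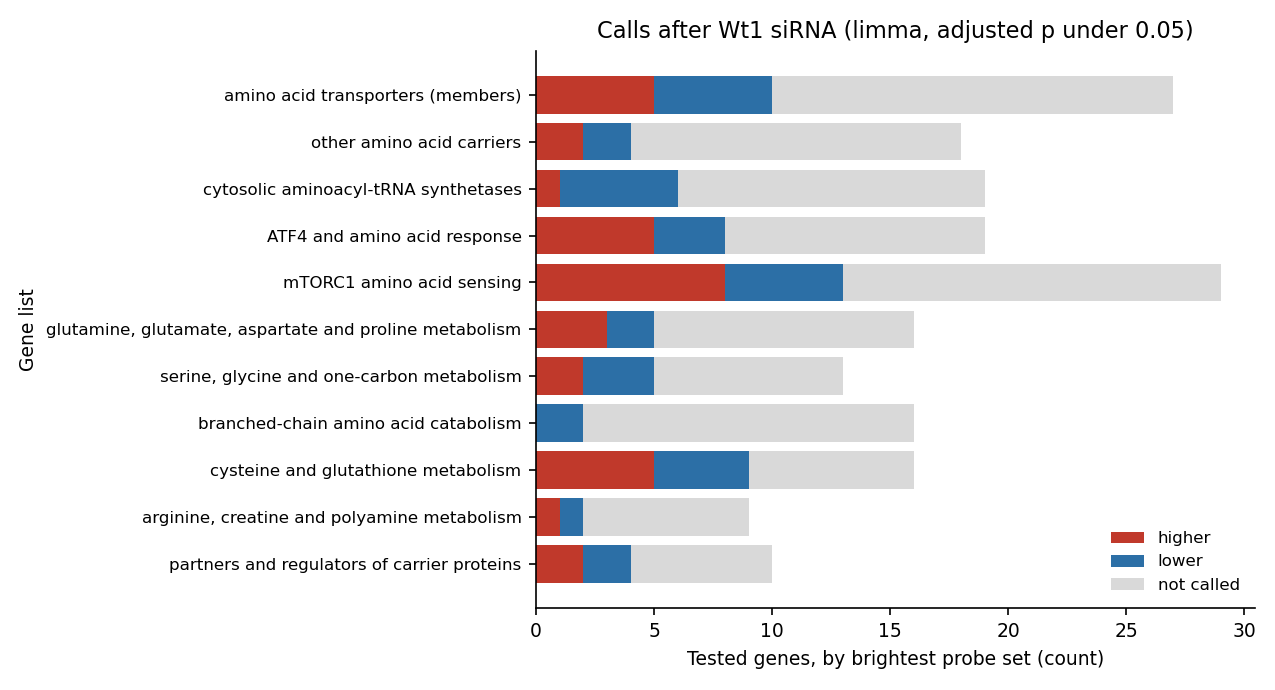
Number of tested genes, by brightest probe set, that were higher (red), lower (blue) or not called (grey) after Wt1 siRNA relative to control siRNA, for the 27 transporter genes and 10 related lists (limma, adjusted p under 0.05). Calls lie on both sides in every list but that of branched-chain amino acid catabolism, where both calls are lower.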

How the data were processed

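The deposited values are linear intensities per probe set of Affymetrix Mouse 430_2 arrays, which the submitters' processing notes credit to MAS5 (version: not given in the sources used here). All 8 arrays, 1 per sample, were grouped by title. Probe sets were named through the platform annotation with symbols updated by RefSeq: of 45037 that are not array controls, 34945 had 1 symbol, 932 several and 9160 none. Probe sets with several symbols were left out, including 1 that names Slc1a2 beside another gene. Signals were log2 transformed without further normalization. The brighter share of 0.5 (22518 probe sets, geometric mean at least 291.1) was tested two-sided with limma 3.58.1 in R 4.3.3 (lmFit, eBayes with an intensity trend), Benjamini-Hochberg adjustment and a threshold of 0.05. Errors after a log2 difference are SE, a fold is a ratio of geometric means, and the number of arrays limits precision. A simulation had 22518 probe sets, of which 200 were changed. It recovered 26% of changes of 0.5 and 67% of changes of 1 on the log2 scale, and 2 of 95 calls were false. In the data 5194 probe sets were called, far more than were changed in the simulation. The recovered shares therefore do not give the power of this comparison.

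The members and lists were chosen with earlier results of these data known. Values on every array are given for each transporter gene whose brightest probe set was called and whose groups did not overlap, for fixed carriers whatever their result (Slc3a2 and its light chains, Slc3a1, Slc7a9, Slc38a1, Slc38a2, Slc38a4, Slc38a9, Slc1a1 to Slc1a5, Slc7a1, Slc7a2, Slc6a9) and for Wt1; values for further probe sets of Slc38a10, Slc6a8 and Slc1a6 were added after they were seen. Up to 4 called genes with the largest differences are named per list, some with their values on every array. Atf4, Asns, Lamtor1 and the remaining called genes of some lists were added after their values were seen. In the lists of mTORC1 sensing and of cysteine and glutathione, not every called gene is named. Alternatives covered normalization (cyclic loess was chosen after seeing the data), filters, values added before the log, probe set summary, fit settings, a replicate block and each array left out.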

Additional observations from a re-analysis of the deposited data

Results flagged for a closer look

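In 7 of 76 groups of 4 arrays checked, 1 array stood farther from the other 3 than Dixon's limit at the 95% level allows for the gap divided by the range of the group; chance gives about 1 group in 20. Slc36a1 (1428793_at) had such an array in both groups: Wt1 siRNA array 2 was high at 1559.7 (gap over range 0.977) and control siRNA array 2 was low at 1599.7 (0.943). Wt1 siRNA array 4 stood apart for 3 probe sets. It was low for Slc7a6 (1433467_at) at 1286.8 (0.913) and for Slc7a1 (1454991_at) at 3872.2 (0.862), and high for Slc38a10 (1429979_a_at) at 3394.8 (0.844). Wt1 siRNA array 1 was low for Slc1a4 (1423550_at) at 876.3 (0.843), and control siRNA array 3 was high for Slc7a2 (1436555_at) at 624.5 (0.87). Without Wt1 siRNA array 4 or without the other arrays in turn, Slc7a6 (1433467_at) kept a log2 difference between -1.155 and -0.996, Slc7a1 (1454991_at) between -0.59 and -0.43, and Slc36a1 between -0.70 and -0.53, each past the threshold.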

How the results depend on the processing

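The count of higher transporter probe sets was 6 and stayed between 4 and 8 under the other settings tried, except that it was 3 of 19 genes with the probe sets of a gene averaged. The count of 10 lower was 5 with probe sets averaged, 5 with 1 probe set per gene, 6 in the brightest share of 0.25 (these settings test fewer features), 5 with median centring and 5 at a threshold of 0.01, and 8 to 12 otherwise. Leaving out 1 array gave 5 to 7 higher and 7 to 10 lower, with 7 lower without Wt1 siRNA array 2, and a Wt1 difference of -2.37 to -2.19. A replicate block gave 7 higher and 10 lower, and also called Slc6a9 1431812_a_at (0.61, limma adjusted p = 0.0175). Same-numbered arrays had correlations of deviations of -0.04, -0.06, 0.04 and 0.08, within the -0.202 to 0.162 of arrays with unlike numbers. No pairing by number was seen, but so few arrays cannot show that there was none, and the labels do not say. Small log2 differences turned sign in uncalled probe sets. Slc1a4 1423550_at was -0.07 with array weights (-0.073 to 0.314 with arrays left out). Slc1a4 1456003_a_at was 0.033 with cyclic loess, 0.066 with median centring and 0.039 with quantile normalization (-0.104 to 0.041). Slc1a5 was 0.013 with probe sets averaged and 0.018 with median centring (-0.268 to 0.003). Slc38a2 1429593_at was -0.13 and 1429594_at -0.26 with array weights (-0.175 to 0.152 and -0.212 to 0.37). With arrays left out, Slc38a10 1427295_at was -0.07 to 0.123, Slc38a9 1436456_at -0.032 to 0.067 and Slc7a6 1460541_at -0.006 to 0.05, and the last was -0.55 with probe sets averaged, which includes 1433467_at. Beyond these, the cause was not tested. Low signal over background limits the 66 untested probe sets.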
